A study of Homo sapiens with 8 samples.

Results

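The genes described here are 41 human genes of DNA replication and S phase, chosen by name for what their products do: origin licensing, helicase activation, the polymerases, the sliding clamp and lagging strand, nucleotide supply, control of the G1/S transition and chromatin assembly. Of the 41 genes, 40 matched an identifier among the 57736 genes listed for each library. All 40 passed the filter on low values, which asks for 10 or more in 2 or more libraries, as did 22100 genes in all. UHRF1, a chromatin factor that recruits DNA methyltransferase, matched no identifier and is not analysed here. Their RNA levels were measured by RNA sequencing in 8 libraries of LS174T cells, an established line from a human colon adenocarcinoma. All cells were LS174T derivatives that carry the Tet repressor and a short hairpin whose expression is switched on by doxycycline. The groups were the ASCL2 line (hairpin against the transcription factor ASCL2) with doxycycline, the ASCL2 line without it, the WiNTRLINC1 line (hairpin against the long non-coding RNA WiNTRLINC1) with doxycycline, and the WiNTRLINC1 line without it, with 2 libraries each. Doxycycline was given at 1 ug/ml for 3 days, and untreated cells were grown for as long without it. The study asked which genes change when either transcript is lost.

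The groups follow the sample titles, and each of the 8 genotype labels gives the opposite hairpin. For the WiNTRLINC1 line the study describes screening of cell clones, and the labels do not say whether the cells sequenced came from 1 clone. No library here pairs doxycycline with the lack of a hairpin, so in a given line what the drug does and what the hairpin does cannot be told apart. The labels do not say that the 2 libraries of a group came from separate cultures, and p-values then measure the spread between these libraries, which may be technical.

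DNA replication starts at origins that are licensed in G1, when ORC, CDC6 and CDT1 load the MCM2-7 helicase onto DNA. In S phase CDC45 and the GINS complex activate the helicase, the polymerases copy both strands, and the PCNA clamp, FEN1 and LIG1 complete the lagging strand. Many genes of this machinery are transcribed at the G1/S transition by E2F factors, which are held back by RB proteins until cyclin E and CDK2 become active. In the intestinal epithelium proliferation is a property of the crypt base, where ASCL2 acts as a Wnt-dependent factor of the stem cells.

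Deposited totals ran from 21524463 to 22941231 per library. In a principal component analysis the first axis set the lines apart and carried 73.3% of the variance. ASCL2 itself had deposited values of 532 and 586 in doxycycline-treated cells of the ASCL2 line, against 2855 and 3373 in untreated ones, and of 805 and 697 in doxycycline-treated cells of the WiNTRLINC1 line, against 2540 and 2034 in untreated ones. ASCL2 was thus lower with doxycycline in both lines, and does not tell which genotype label is right. All 10 markers of colon epithelium had values above 0 in every library, but 5 of them fell in the ASCL2 line (CDX2 by 0.76 on the log2 scale), and 3 fell and 2 rose in the WiNTRLINC1 line. Of the 10 markers, 50% were thus called lower in the ASCL2 line, and 30% lower and 20% higher in the WiNTRLINC1 line. Among all tested genes 12.7% fell in the ASCL2 line, and 9.03% fell and 9.54% rose in the WiNTRLINC1 line. The keratin KRT18 had 8197 and 7734 with doxycycline in the WiNTRLINC1 line, against 38977 and 36188 without. Between untreated lines 4 of the 10 markers were called higher in the WiNTRLINC1 line (40%) and 5 lower (50%), with a median of -0.22. Among all tested genes 25.7% were higher and 29.5% lower in that comparison. The mucin MUC2, the extreme among the higher ones, was 17.3-fold higher in the untreated WiNTRLINC1 line than in the untreated ASCL2 line. Summed over 6 fibroblast markers, values were 184 and 193 in doxycycline-treated cells of the ASCL2 line, against 299 and 304 in untreated ones, and 135 and 94 in doxycycline-treated cells of the WiNTRLINC1 line, against 96 and 107 in untreated ones. COL1A1 carried the lower sum of the ASCL2 line, with 60 and 99 with doxycycline, against 200 and 222 without (-1.44, limma adjusted p = 0.00251), while PDGFRB had 71 and 66, against 54 and 47 (0.43, limma adjusted p = 0.233). DCN was listed at 0 in 2 of the 8 libraries and LUM in 2, and CD3E in 1. Sums over 4 endothelial markers were 14 to 43, and sums over 6 immune markers were 48 to 98. The part of these transcripts in the results was not tested.

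In doxycycline-treated cells of the ASCL2 line, 26 of the 40 genes fell, none rose and 14 did not pass the test. Test here means limma on log2(value + 1) with Benjamini-Hochberg adjustment over the 22100 genes, called at an adjusted p under 0.05. The largest falls were those of the flap endonuclease FEN1, the helicase subunit MCM3, the thymidylate synthase TYMS and the transcription factor E2F1, which were the 4 called genes at least 2-fold lower. Of the 40, 65% were called lower and 0 higher, against 12.7% lower and 13.9% higher among all tested genes, and the median log2 fold change was -0.32 over the 40, against 0.01 over all tested genes. At an unadjusted p under 0.05 the limma fit also put 0 of the 40 higher. In 39 of the 40 the fold change was below 0, the exception being SLBP. Both doxycycline libraries lay below both untreated ones for 34 of the 40, and for 29.8% of all tested genes. The summed deposited value of the 40 genes was 66670 and 64880 in doxycycline-treated libraries, against 94758 and 91292 in untreated ones, so that the treated mean was 70.7% of the untreated one. In bulk RNA a smaller share of cells in S phase and less of each RNA per cell cannot be told apart.

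Of the 10 origin licensing genes, 8 fell with doxycycline in the ASCL2 line, whereas 2 did not pass. MCM3 (ENSG00000112118, chromosome 6), a subunit of the replicative helicase, had deposited values of 5355 and 5147 in doxycycline-treated cells, against 12796 and 12261 in untreated cells. The treated libraries were both low and close to each other, and the groups did not overlap. The fall was 2.39-fold (log2 fold change -1.25 with an SE of 0.0669, n = 2 per group, adjusted p = 1.15e-08 by limma). MCM5, another subunit of the ring, had 3286 and 3410 with doxycycline, against 5505 and 4834 without (-0.62 ± 0.0865, limma adjusted p = 9.24e-05). The remaining subunits fell less, by 0.34 on the log2 scale for MCM4, 0.33 for MCM6, 0.31 for MCM2 and 0.19 for MCM7. CDT1, the loading factor that is destroyed once S phase begins, had 1030 and 1057 with doxycycline, against 1418 and 1348 without (-0.41 ± 0.094, limma adjusted p = 0.00498). ORC1, the origin recognition subunit, fell by 0.30 on the log2 scale (limma adjusted p = 0.0331). ORC6, its smallest partner, and CDC6, the ATPase that brings the helicase to origins, had log2 fold changes of -0.16 and -0.10 that did not pass the test.

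The unequal changes within the MCM2-7 ring altered the make-up of its transcripts. Per exon length, MCM3 held 24.5% and 24% of the summed MCM2-7 level in doxycycline-treated cells of the ASCL2 line, against 38.5% and 37.9% in untreated ones. Its share in the WiNTRLINC1 line was 32.2% and 32.3% with doxycycline, against 31.7% and 32.2% without. The share was thus lower in both treated libraries of the ASCL2 line than in any of the other 6 libraries. MCM7 held 31.8% and 33% with doxycycline in the ASCL2 line, against 24% and 24.8% without, although its own value did not rise. These shares have no test of their own. Exon length merges all annotated exons of a gene, so the size of each share depends on the annotation.

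**Figure D1:**
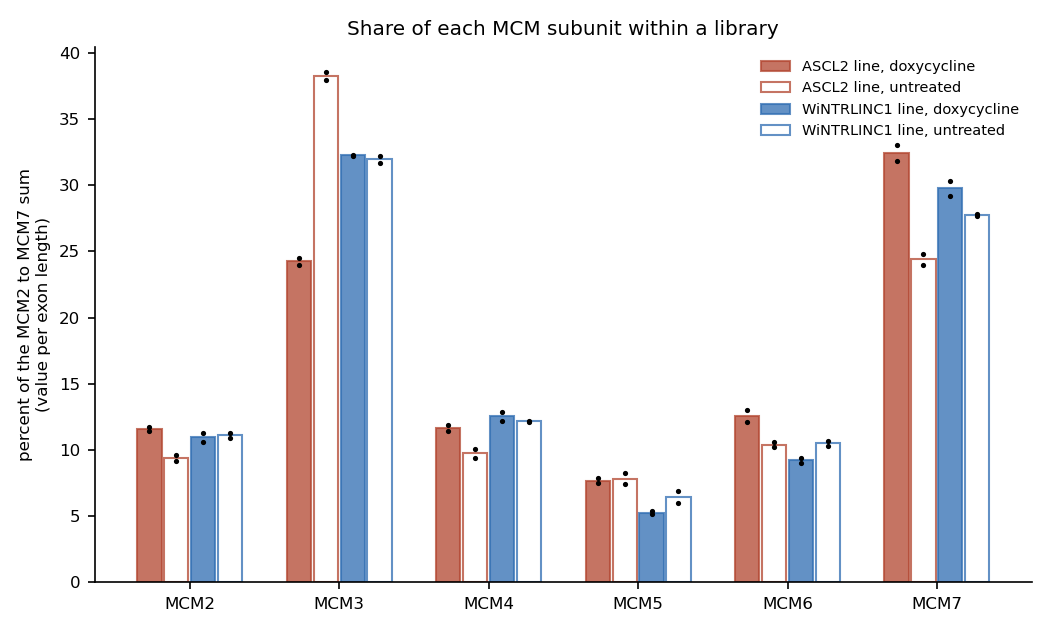
Share of the summed MCM2-7 level, per exon length and in percent, held by each subunit (bars, mean of each group, and points, single libraries). Doxycycline-treated bars stand left of untreated ones in each line. MCM3 holds 24.5% and 24% in doxycycline-treated cells of the ASCL2 line, against 38.5% and 37.9% in untreated ones, and 31.7% to 32.3% in the WiNTRLINC1 line.

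Of the 6 genes of helicase activation, 3 fell with doxycycline in the ASCL2 line, and the others did not pass. MCM10, which helps to start the assembled helicase, had 538 and 400 with doxycycline, against 777 and 724 without (-0.69 ± 0.13, limma adjusted p = 0.00111). GINS4 had 343 and 327 with doxycycline, against 503 and 539 without (-0.64 ± 0.0991, limma adjusted p = 0.000259). GINS2 fell by 0.32 on the log2 scale (limma adjusted p = 0.0138), whereas GINS1 (-0.29), CDC45 (-0.20) and GINS3 (-0.11) did not pass. The 4 GINS genes encode the 4 subunits of one complex, and their treated libraries lay below the untreated ones except for GINS3.

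Among the polymerase and primase members in the ASCL2 line, the 2 that fell were both subunits of DNA polymerase alpha, which lays the primer-linked first stretch of new strands. POLA1, its catalytic subunit, had deposited values of 535 and 457 in doxycycline-treated cells, against 914 and 928 in untreated ones (-0.90 ± 0.0977, limma adjusted p = 9.99e-06). POLA2, its accessory subunit, had 824 and 772 with doxycycline, against 1481 and 1366 without (-0.83 ± 0.0848, limma adjusted p = 5.09e-06). Both genes were therefore well below their untreated values in both treated libraries. PRIM1, the primase that works in the same complex, had 262 and 281 with doxycycline, against 343 and 328 without, which did not pass (-0.30 ± 0.119, limma adjusted p = 0.0744). PRIM2, the other primase subunit, is not among the 40 and was named after its values were seen. It had 306 and 266 with doxycycline, against 443 and 393 without, and was called lower (-0.55 ± 0.118, limma adjusted p = 0.00311). POLE, the catalytic subunit of the leading-strand polymerase, had 2216 and 2332 with doxycycline, against 2316 and 2356 without (-0.04 ± 0.0709, limma adjusted p = 0.736). POLD1 (-0.37), of the lagging-strand polymerase, and POLE2 (-0.30), a partner of POLE, did not pass either.

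Of 7 genes for the clamp, its loader and the lagging strand, 5 fell in the ASCL2 line. FEN1 (ENSG00000168496, chromosome 11), which trims the flaps of Okazaki fragments, had deposited values of 1957 and 1776 in doxycycline-treated cells, against 4866 and 4091 in untreated ones. The lower untreated library was still above the higher treated one by a wide margin, and the fall was 2.39-fold (-1.26 ± 0.0858, n = 2 per group, limma adjusted p = 1.22e-07). LIG1, the ligase that seals the fragments, fell by 0.36 on the log2 scale (limma adjusted p = 0.00464). PCNA, the clamp, had 4235 and 4119 with doxycycline, against 5058 and 5050 without (-0.28 ± 0.0713, limma adjusted p = 0.0101). Of the clamp loader subunits, RFC5 (-0.43) and RFC2 (-0.39) fell, whereas RFC4 (-0.17) and RFC3 (-0.15) did not pass.

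All 4 genes of nucleotide supply fell in the ASCL2 line. TYMS (ENSG00000176890, chromosome 18), which makes thymidylate, had 1182 and 1016 with doxycycline, against 2675 and 2480 without, a 2.35-fold fall (-1.23 ± 0.0852, n = 2 per group, limma adjusted p = 1.38e-07). Opposite-strand exons of ENOSF1 overlap 39.1% of the TYMS exons, and ENOSF1 did not pass in this line (-0.12). TK1, the thymidine salvage kinase of dividing cells, had 2489 and 2650 with doxycycline, against 4986 and 4205 without (-0.83 ± 0.0984, limma adjusted p = 2.13e-05). The large and small subunits of ribonucleotide reductase fell less, RRM1 by 0.42 and RRM2 by 0.32 on the log2 scale. Reads of RRM2 can be shared with its pseudogene copies, of which RRM2P3 held values equal to 23.6% of those of RRM2 over the 8 libraries.

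Of the G1/S regulators, E2F1 and CCNE2 fell in the ASCL2 line. E2F1 (ENSG00000101412, chromosome 20), an activator of replication genes, had deposited values of 755 and 755 in doxycycline-treated cells, against 1613 and 1630 in untreated ones, with almost no spread within either group (-1.10 ± 0.0926, 2.15-fold, n = 2 per group, limma adjusted p = 8.42e-07). CCNE2, a cyclin E gene, was the lowest expressed of the 40 per exon length and varied most, with 115 and 64 with doxycycline, against 155 and 179 without (-0.95 ± 0.231, limma adjusted p = 0.00696). Its opposite-strand neighbour INTS8 overlaps 37% of the CCNE2 exons and rose (0.46). The other cyclin E gene, CCNE1 (-0.04), and E2F2 (-0.16) did not pass. In chromatin assembly both measured subunits of the histone chaperone CAF-1 fell, CHAF1B by 0.59 and CHAF1A by 0.31 on the log2 scale. SLBP, which binds the stem-loop of replication-dependent histone mRNAs, had 2230 and 2147 with doxycycline, against 2013 and 2022 without, and did not pass (0.12 ± 0.0722, limma adjusted p = 0.266).

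Under 17 other settings of the processing, 12 of the 26 calls of the ASCL2 line held in every one: MCM3, MCM5, GINS4, POLA1, POLA2, RFC5, FEN1, TYMS, RRM1, TK1, E2F1 and CHAF1B. Without a mean-variance trend 12 genes were called. Leaving out the first untreated ASCL2-line library gave 19 calls, with ORC1, GINS2, CHAF1A, LIG1, MCM2, RFC2 and MCM7 lost at adjusted p of 0.0534 to 0.277. Without the second doxycycline library 19 were called, with ORC1, GINS2, CHAF1A, RRM2, MCM6, PCNA, MCM7 and CCNE2 lost at 0.0517 to 0.195 and POLD1 gained at 0.0166. Without the second untreated library RRM2, MCM7 and CCNE2 were lost (0.0626 to 0.127), and without the first doxycycline library ORC1, GINS2 and MCM7 were (0.0527 to 0.162). MCM7 was also lost without the first (0.0679) or second (0.0677) doxycycline library of the WiNTRLINC1 line, which shares the estimate of spread.

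**Figure D2:**
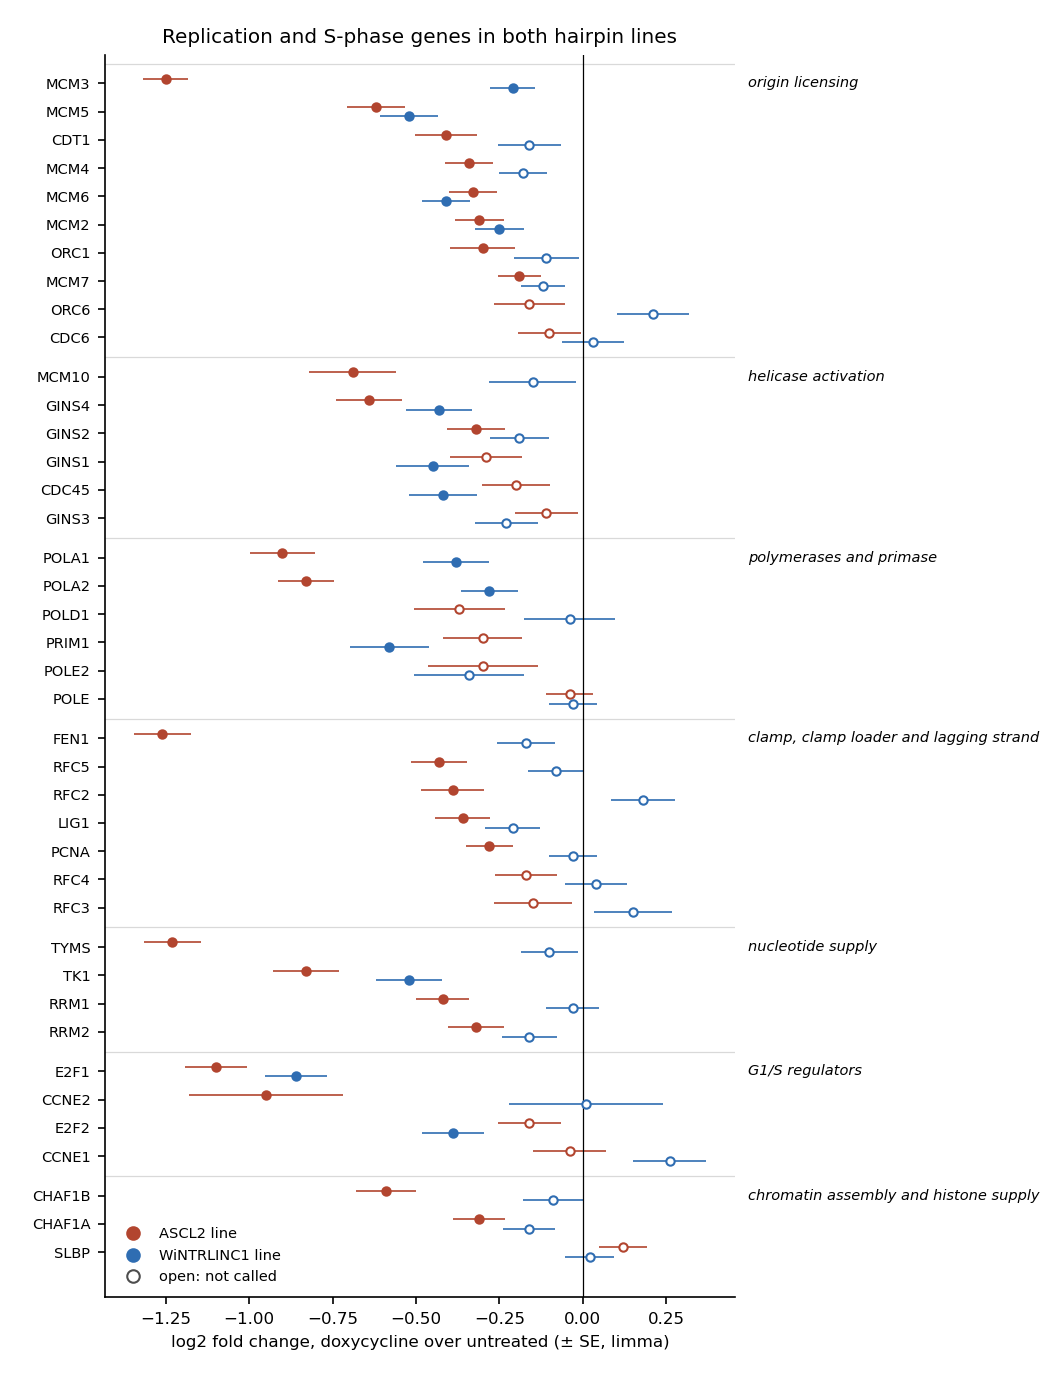
Log2 fold change of each of the 40 genes, doxycycline-treated over untreated, with its limma standard error (bars), in the ASCL2 line (red, upper) and the WiNTRLINC1 line (blue, lower), grouped by role; filled points passed at an adjusted p under 0.05. Of the ASCL2 line points 39 lie left of 0, and FEN1, MCM3, TYMS and E2F1 lie left of -1, whereas the lowest in the WiNTRLINC1 line is E2F1 at -0.86.

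The promoters of the genes with the largest falls are shown here because E2F factors bind a short sequence close to the start of many replication genes. RefSeq promoter windows of the assembly GRCh38.p14, the 250 bases before the transcript start, were at hand for 37 of the 41 genes, including UHRF1 and excluding MCM4, MCM5, GINS4 and CCNE2. Shown are the 3 called genes with the largest falls in each line whose window holds a match: MCM3, TYMS and E2F1 for the ASCL2 line, and E2F1, MCM6 and E2F2 for the WiNTRLINC1 line. Each runs 5′ to 3′ on the strand of the gene and ends at the base before the start, and capitals mark a match on either strand to TTTCCCGC, TTTCGCGC, TTTGCCGC or TTTGGCGC, the 4 E2F words searched.
MCM3, chr6:52284743-52284992, minus strand: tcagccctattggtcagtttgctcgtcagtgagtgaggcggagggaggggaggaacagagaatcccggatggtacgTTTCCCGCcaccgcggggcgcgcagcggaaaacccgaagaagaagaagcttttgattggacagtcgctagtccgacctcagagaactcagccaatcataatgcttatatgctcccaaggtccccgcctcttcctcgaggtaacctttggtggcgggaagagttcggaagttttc
TYMS, chr18:657403-657652, plus strand: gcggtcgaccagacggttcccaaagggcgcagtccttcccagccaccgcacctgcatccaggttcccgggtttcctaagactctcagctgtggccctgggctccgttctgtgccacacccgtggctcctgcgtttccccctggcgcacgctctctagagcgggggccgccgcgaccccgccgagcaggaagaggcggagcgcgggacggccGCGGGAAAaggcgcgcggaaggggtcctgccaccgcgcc
E2F1, chr20:33686386-33686635, minus strand: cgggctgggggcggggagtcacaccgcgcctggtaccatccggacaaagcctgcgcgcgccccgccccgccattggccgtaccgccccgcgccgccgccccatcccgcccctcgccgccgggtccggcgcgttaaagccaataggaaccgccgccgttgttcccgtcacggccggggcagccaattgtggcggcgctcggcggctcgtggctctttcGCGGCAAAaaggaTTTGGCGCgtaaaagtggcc
MCM6, chr2:135876444-135876693, minus strand: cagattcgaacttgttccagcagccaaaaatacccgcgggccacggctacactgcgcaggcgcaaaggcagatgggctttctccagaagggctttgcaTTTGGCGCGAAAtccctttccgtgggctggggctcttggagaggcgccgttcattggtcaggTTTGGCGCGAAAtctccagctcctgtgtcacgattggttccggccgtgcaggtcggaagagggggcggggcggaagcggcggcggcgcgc
E2F2, chr1:23531234-23531483, minus strand: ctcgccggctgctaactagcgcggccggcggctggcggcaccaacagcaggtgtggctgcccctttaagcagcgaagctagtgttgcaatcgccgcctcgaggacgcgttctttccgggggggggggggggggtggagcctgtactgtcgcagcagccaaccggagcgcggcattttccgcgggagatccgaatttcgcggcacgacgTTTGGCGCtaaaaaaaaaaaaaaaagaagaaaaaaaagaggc
The first base of the match lay 174 bases before the start in MCM3, 39 in TYMS, 33 and 20 in E2F1, and 42 in E2F2. In MCM6 a pair of matching stretches, 152 and 90 bases before the start, each hold 2 of the words overlapping on opposite strands.

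An E2F word was found in 15 of the 37 windows (40.5%), against 2 of 32 (6.25%) of other replication genes and 504 of 12262 (4.11%) of all tested genes with a window. In the whole promoter table the share was 2.79%. The CCAAT box, the binding word of NF-Y, was in 54.1% of the 37 windows, against 50.0% of those of other replication genes and 34.7% of those of all tested genes. The cell-cycle word TTTGAA, typical of genes expressed in G2 and mitosis, was in 2.70% of the 37, against 3.12% of other replication genes and 8.82% of all tested genes. Both words were searched on both strands. FEN1, the gene with the largest fall, had none of the E2F words in its window, and neither had TK1. In the ASCL2 line 11 of 14 genes with an E2F word fell (median log2 fold change -0.34), against 11 of 22 without one (-0.30). In the WiNTRLINC1 line 6 of 14 with the word fell (median -0.20), against 5 of 22 without it (-0.13). These counts are descriptions of letters in a window and were not tested.

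In doxycycline-treated cells of the WiNTRLINC1 line 13 of the 40 genes fell, none rose and 27 did not pass. E2F1 had the largest fall, followed by the primase PRIM1, the thymidine kinase TK1 and the helicase subunit MCM5, and none of the falls reached 2-fold. Of the 40, 32.5% were called lower and 0 higher, against 9.03% lower and 9.54% higher among all tested genes, and the median log2 fold change was -0.16 over the 40, against 0.01 over all tested genes. At an unadjusted p under 0.05 the limma fit put 1 of the 40 higher, CCNE1 (0.26), and 17 lower. Both doxycycline libraries lay below both untreated ones for 26 of the 40, against 26.5% of all tested genes. The summed deposited value was 112009 and 110269 with doxycycline, against 127065 and 125321 without, so that the treated mean was 88.1% of the untreated one.

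Origin licensing held 4 of the 13 falls in the WiNTRLINC1 line, helicase activation 3 and the polymerases and primase 3. Of the licensing genes, the 4 that fell were subunits of MCM2-7. MCM5 had deposited values of 4315 and 4014 with doxycycline, against 6392 and 5554 without (-0.52 ± 0.0865, n = 2 per group, limma adjusted p = 0.000628). MCM6 had 4072 and 4124 with doxycycline, against 5339 and 5558 without (-0.41 ± 0.0717, limma adjusted p = 0.000907). In both genes the treated libraries lay below the untreated ones. MCM2 (-0.25) and MCM3 (-0.21) fell less, and MCM4 (-0.18) and MCM7 (-0.12) did not pass.

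Of the helicase activators, GINS1 had 638 and 772 with doxycycline, against 953 and 963 without (-0.45 ± 0.109, limma adjusted p = 0.00935). GINS4 had 654 and 705 with doxycycline, against 902 and 927 without (-0.43 ± 0.0991, limma adjusted p = 0.00697). CDC45, the factor that binds GINS and MCM2-7 to form the active helicase, had 889 and 910 with doxycycline, against 1302 and 1114 without (-0.42 ± 0.102, limma adjusted p = 0.00914). The groups of these 3 genes did not overlap, and GINS2 (-0.19), GINS3 (-0.23) and MCM10 (-0.15) did not pass. All 3 called members among the polymerases and primase belong to the polymerase alpha-primase complex. PRIM1 had 241 and 249 with doxycycline, against 372 and 363 without (-0.58 ± 0.119, limma adjusted p = 0.00309). POLA1 had 1126 and 1206 with doxycycline, against 1452 and 1593 without (-0.38 ± 0.0977, limma adjusted p = 0.0125). POLA2 fell by 0.28 on the log2 scale (limma adjusted p = 0.0324). PRIM2, outside the 40, had 418 and 437 with doxycycline, against 539 and 505 without, and did not pass (-0.29 ± 0.118, limma adjusted p = 0.113), so 3 of the 4 measured genes of the complex were called here.

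Of the nucleotide supply genes TK1 had 2228 and 2032 with doxycycline in the WiNTRLINC1 line, against 3315 and 2804 without (-0.52 ± 0.0984, limma adjusted p = 0.00174). TYMS (-0.10), RRM1 (-0.03) and RRM2 (-0.16) did not pass. E2F1 had 852 and 776 with doxycycline, against 1593 and 1374 without, a 1.82-fold fall (-0.86 ± 0.0926, n = 2 per group, limma adjusted p = 1.17e-05). E2F2, a second activator, had 1302 and 1234 with doxycycline, against 1805 and 1536 without (-0.39 ± 0.0934, limma adjusted p = 0.00818). Both E2F genes were lower in every treated library than in any untreated one. None of the 7 genes for the clamp, its loader and the lagging strand was called by limma, with fold changes between -0.21 for LIG1 and 0.18 for RFC2, and 1 of them was lower at an unadjusted p under 0.05. CHAF1A (-0.16), CHAF1B (-0.09) and SLBP (0.02) did not pass, and neither did the licensing factors ORC1 (-0.11), ORC6 (0.21), CDC6 (0.03) and CDT1 (-0.16).

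Of the 13 calls in the WiNTRLINC1 line 3 held under all 17 other settings: E2F1, MCM6 and PRIM1. The count was 5 with no filter and 4 without a mean-variance trend. Leaving out the first untreated WiNTRLINC1-line library gave 8 calls, with E2F2, GINS1, CDC45, MCM2 and MCM3 lost at adjusted p of 0.0501 to 0.141. Without the second untreated library 8 were called, with POLA2, GINS1, MCM2, MCM3 and POLA1 lost at 0.0544 to 0.187. Without the first doxycycline library 7 were called, with POLA2, GINS1, CDC45, MCM3, GINS4 and POLA1 lost at 0.0643 to 0.124, and without the second 8, with E2F2, POLA2, CDC45, MCM2 and MCM3 lost at 0.0505 to 0.253. MCM3 was also lost without the first (0.0523) or second (0.0517) treated library of the ASCL2 line.

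**Figure D3:**
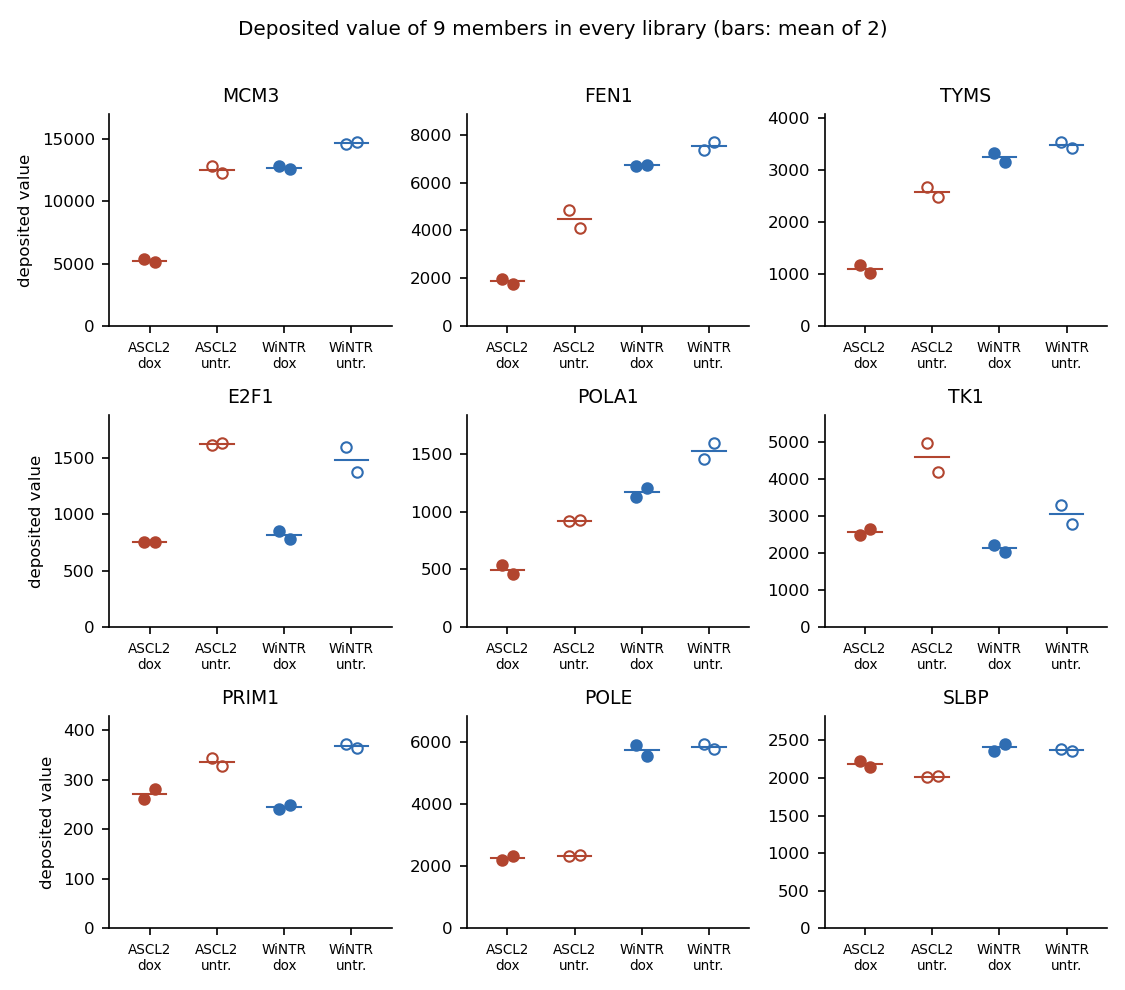
Deposited values (scaled read counts) of 9 genes in every library, with a bar at the mean of each group of 2; filled points are doxycycline-treated and open points untreated cells, red for the ASCL2 line and blue for the WiNTRLINC1 line. MCM3, FEN1 and TYMS are low in the doxycycline-treated ASCL2 line, whereas E2F1 and TK1 are low in the treated cells of both lines, and POLE and SLBP show no called change.

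The genes that fell in both lines were MCM2, MCM3, MCM5, MCM6, GINS4, POLA1, POLA2, TK1 and E2F1, 9 of the 26 called in the ASCL2 line and 9 of the 13 called in the WiNTRLINC1 line. A further 17 passed in the ASCL2 line alone, 4 in the WiNTRLINC1 line alone (CDC45, GINS1, PRIM1 and E2F2), and 10 in neither. Passing in a single line is not a difference between lines, which was tested as the response of the WiNTRLINC1 line minus that of the ASCL2 line. By that test 8 of the 40 responses differed, and each of the 8 genes fell more in the ASCL2 line. Of the 40, 20% were called, all with the higher response in the WiNTRLINC1 line, against 15.0% of all tested genes, of which 7.39% had the higher and 7.60% the lower response there. The limma fit put 0 of the 40 on the other side, and 0 at an unadjusted p under 0.05, where 14 had the higher response in the WiNTRLINC1 line. None of the 4 genes called in the WiNTRLINC1 line alone differed between lines by this test.

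The largest differences were those of TYMS, FEN1 and MCM3. TYMS had 3318 and 3157 with doxycycline in the WiNTRLINC1 line, against 3535 and 3409 without, where the ASCL2 line showed the 2.35-fold fall given above (difference 1.13 ± 0.12 SE, limma adjusted p = 1.74e-05). FEN1 had 6693 and 6756 with doxycycline in the WiNTRLINC1 line, against 7377 and 7708 without (difference from the ASCL2 line 1.09 ± 0.121, limma adjusted p = 2.45e-05). MCM3 had 12853 and 12563 with doxycycline in the WiNTRLINC1 line, against 14584 and 14772 without (difference 1.05 ± 0.0946, limma adjusted p = 4.4e-06). In each of the 3 the treated libraries of the WiNTRLINC1 line were only slightly below their untreated ones, and these 3 differences held under all 16 other settings. The other 5 were smaller: RFC2 0.57, POLA2 0.56, POLA1 0.51, CHAF1B 0.50 and RRM1 0.39. E2F1, called in both lines, had responses that did not pass this test (difference 0.24 ± 0.131, limma adjusted p = 0.263), and MCM6 had the same outcome (-0.08 ± 0.101, limma adjusted p = 0.681).

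The count of differing responses was 5 with no filter and 3 without a mean-variance trend. When the first untreated WiNTRLINC1 library was left out it was 5, with RRM1, CHAF1B and POLA1 lost (adjusted p 0.0556 to 0.0823). RRM1 and POLA1 were also lost without the second untreated (0.0548 to 0.0821) or second doxycycline library (0.107 to 0.136) of the ASCL2 line and without the second doxycycline library of the WiNTRLINC1 line (0.0709 to 0.0864). RRM1 alone was lost when the second untreated WiNTRLINC1 library was left out (0.0534), and RRM1 and RFC2 without its first doxycycline library (0.0533 to 0.09), where MCM10 was gained (0.0495). Without the first doxycycline library of the ASCL2 line MCM10, ORC6 and CCNE2 were gained (0.00738 to 0.0398).

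**Figure D4:**
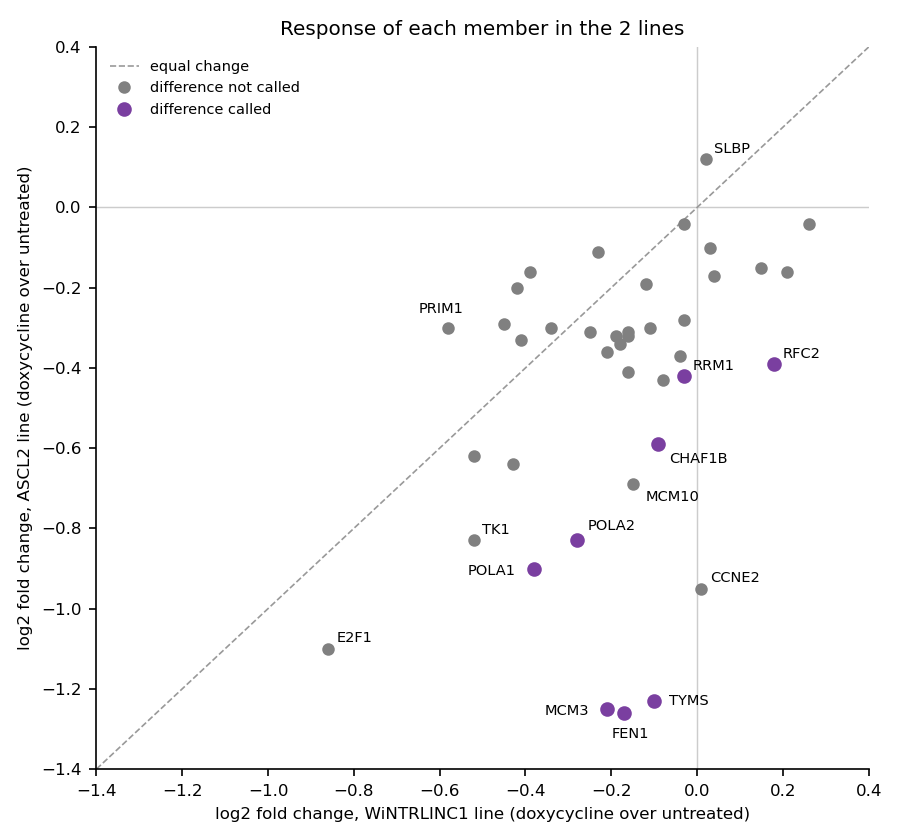
Log2 fold change (doxycycline over untreated) of each of the 40 genes in the WiNTRLINC1 line (horizontal axis) and in the ASCL2 line (vertical axis); the dashed line marks equal change and purple points the 8 genes whose responses differed by limma. Of the points 32 lie below the dashed line, with TYMS, FEN1 and MCM3 farthest from it and E2F1 close to it.

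Untreated cells of the lines already differed in these genes: 30 of the 40 were higher in the untreated WiNTRLINC1 line than in the untreated ASCL2 line, 2 were lower and 8 did not pass. Of the 40, 75% were called higher and 5% lower, against 25.7% higher and 29.5% lower among all tested genes, and the median log2 difference was 0.48 over the 40, against -0.04 over all tested genes. This comparison uses the same untreated libraries as the responses above, so its values are given side by side with them and not as a further test. The summed value of the 40 in untreated WiNTRLINC1 cells was 136% of that in untreated ASCL2 cells, and in doxycycline-treated WiNTRLINC1 cells it was still 119% of that in untreated ASCL2 cells. Both untreated WiNTRLINC1 libraries lay above both untreated ASCL2 libraries for 36 of the 40, against 35.7% of all tested genes. In the same comparison 19 of 42 other replication genes were higher and 11 lower (median 0.14), 11 of 15 mitotic genes were higher and none lower (median 0.36), and 6 of 8 replication histones were lower and none higher (median -1.46). By limma the counts of 0 were also 0 at an unadjusted p under 0.05.

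POLE had deposited values of 5942 and 5776 in the untreated WiNTRLINC1 line, against 2316 and 2356 in the untreated ASCL2 line, a 2.51-fold difference (1.33 ± 0.0709, n = 2 per group, limma adjusted p = 1.12e-09). LIG1 had 2635 and 2602 in the WiNTRLINC1 line, against 1103 and 979 in the ASCL2 line (1.33 ± 0.0819, limma adjusted p = 4.76e-09). CDC45 had 1302 and 1114 in the WiNTRLINC1 line, against 622 and 556 in the ASCL2 line (1.03 ± 0.102, limma adjusted p = 6.94e-07). These were the 3 largest differences, and the groups were far apart in each. The 6 genes of helicase activation were all higher, with fold changes between 0.29 for GINS3 and 1.03 for CDC45, and 8 of the 10 licensing genes were. TK1 went the other way, with 3315 and 2804 in the untreated WiNTRLINC1 line, against 4986 and 4205 in the untreated ASCL2 line (-0.59 ± 0.0984, limma adjusted p = 0.000135). PCNA was also lower, with 4303 and 3941 in the WiNTRLINC1 line, against 5058 and 5050 in the ASCL2 line (-0.30 ± 0.0713, limma adjusted p = 0.00259). The 8 that did not pass were MCM5, ORC6, PRIM1, POLE2, RRM2, E2F1, CCNE2 and CHAF1A. E2F1, for one, had 1593 and 1374 in the WiNTRLINC1 line, against 1613 and 1630 in the ASCL2 line (-0.13 ± 0.0926, limma adjusted p = 0.243).

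Calls between the untreated lines rested on single libraries for a few genes. POLA2, GINS3, MCM3 and RFC2 were lost without the second untreated library of the ASCL2 line (adjusted p 0.0604 to 0.14), and GINS3, CDT1, POLD1, SLBP and RFC2 without the first untreated WiNTRLINC1 library (0.0507 to 0.163). POLA2 and GINS3 were lost (0.0763 to 0.0777) and POLE2 and MCM5 gained (0.0124 to 0.0195) without the second untreated library of the WiNTRLINC1 line, and MCM5 was gained (0.0239) without the first of the ASCL2 line.

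**Figure D5:**
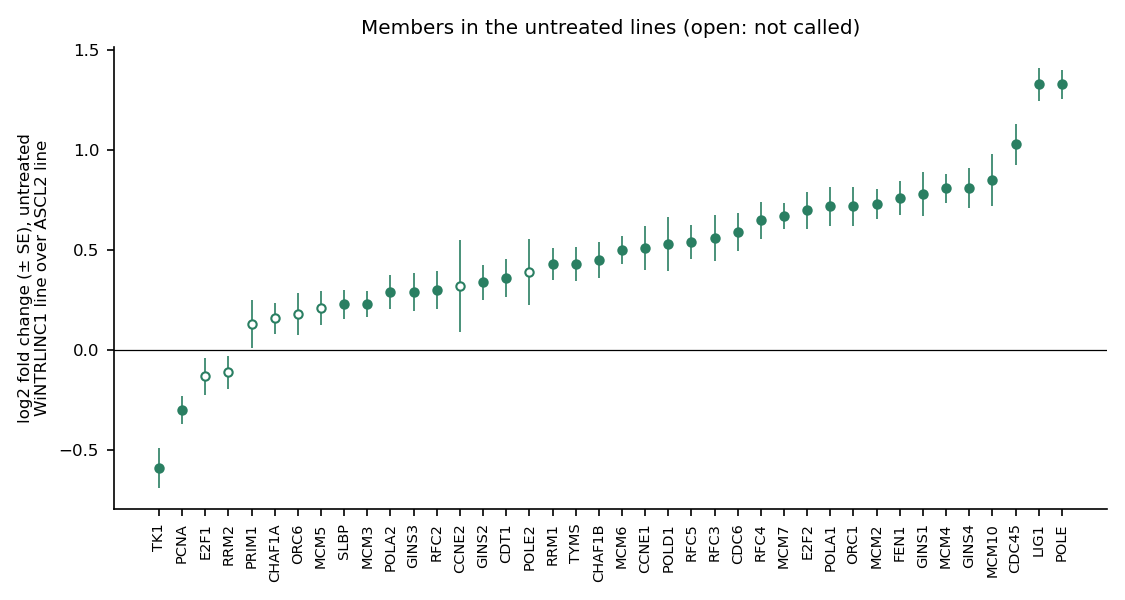
Log2 fold change of each of the 40 genes between untreated cells, WiNTRLINC1 line over ASCL2 line, with its limma standard error (bars), ordered by size; filled points passed at an adjusted p under 0.05. Filled points lie above 0 for 30 genes and below it for TK1 and PCNA, and POLE and LIG1 stand at 1.33.

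Levels differed widely among the 40. Exon length here merges all annotated exons of a gene, so the order of different genes depends on the annotation. Per kilobase of exon, PCNA had the highest mean level in untreated cells of the ASCL2 line, 3435.8, with MCM3 next at 3432.5, then TK1 (2469.4), MCM7 (2190.8) and FEN1 (1807.3). PCNA and MCM3 lay closer than the libraries of MCM3 did, so their order there is not resolved. In doxycycline-treated cells of that line MCM3 was at 1438.6 per kilobase, below PCNA (2839.6) and MCM7 (1923.8). In the untreated WiNTRLINC1 line the order at the top was MCM3 (4021.4), MCM7 (3490.8), FEN1 (3043.8) and PCNA (2802.2). At the low end stood GINS4, POLE2 and CCNE2, with 95.2, 77.8 and 38 per kilobase in untreated cells of the ASCL2 line.

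Replication genes outside the 40 fell in part. In the ASCL2 line 20 of 42 others fell (47.6%), 3 rose (7.14%) and the median log2 fold change was -0.26, beside 12.7% lower and 13.9% higher among all tested genes. In the WiNTRLINC1 line 6 fell (14.3%), 5 rose (11.9%) and the median was -0.04, shares near the 9.03% lower and 9.54% higher among all tested genes. TIMELESS of the fork protection complex, the histone chaperone ASF1B and the origin firing factor TICRR fell by 0.61, 0.60 and 0.66 in the ASCL2 line. In the WiNTRLINC1 line SSRP1, a subunit of the FACT histone chaperone, had 6254 and 6665 with doxycycline, against 12246 and 12573 without (-0.94 ± 0.0738, limma adjusted p = 6.26e-07). CLSPN, the checkpoint adaptor claspin, had 343 and 434 with doxycycline in the WiNTRLINC1 line, against 929 and 1076 without (-1.37 ± 0.146, limma adjusted p = 1.07e-05). ASF1B fell by 0.86 there and TIMELESS by 0.57. SSRP1 and CLSPN also fell in the ASCL2 line, by 0.38 and 0.61. By the test of responses, 5 of the 42 (11.9%) had the higher response in the WiNTRLINC1 line, against 7.39% of all tested genes. The 2 with the lower one (4.76%, against 7.60%) were CLSPN (-0.76, limma adjusted p = 0.0207) and SSRP1 (-0.57, limma adjusted p = 0.00171). Of the 5 with the higher response, RPA1 (0.69, limma adjusted p = 0.000567) and DUT (0.58, limma adjusted p = 0.0053) moved in opposite directions. They fell by 0.44 and 0.29 in the ASCL2 line and rose by 0.25 and 0.29 in the WiNTRLINC1 line. TICRR (0.49, limma adjusted p = 0.0153) did not pass in the WiNTRLINC1 line (-0.17). GMNN, the inhibitor of CDT1, fell by 0.28 in the ASCL2 line and did not pass in the WiNTRLINC1 line (0.16). RRM2B, a ribonucleotide reductase subunit used outside S phase, did not pass in either (0.08 and 0.10).

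Among the regulators of the G1/S transition, inhibitors of cyclin-dependent kinases changed in the ASCL2 line. Of 6 tested CDK inhibitor genes, 3 rose there and 1 fell, whereas in the WiNTRLINC1 line 1 fell and none rose (0 also at an unadjusted p under 0.05 by limma). Among all tested genes 13.9% were called higher and 12.7% lower in the ASCL2 line, and 9.54% and 9.03% in the WiNTRLINC1 line. CDKN1A, which encodes p21, had deposited values of 10163 and 11586 in doxycycline-treated cells of the ASCL2 line, against 5866 and 5204 in untreated ones (0.97 ± 0.0851, limma adjusted p = 1.22e-06). In the WiNTRLINC1 line CDKN1A had 4890 and 4863 with doxycycline, against 5476 and 4952 without, and did not pass (-0.09 ± 0.0851, limma adjusted p = 0.515). The responses of CDKN1A differed (-1.07 ± 0.12, limma adjusted p = 2.76e-05), and so did those of CDKN1B, which encodes p27 and rose by 0.53 in one and fell by 0.29 in the other (-0.83 ± 0.112, limma adjusted p = 0.000137). CDKN2B rose by 1.49 and CDKN2C fell by 1.04 in the ASCL2 line. The E2F and RB network, with 15 genes, had 4 higher and 5 lower in the ASCL2 line, against 1 higher and 2 lower in the WiNTRLINC1 line. The shares in the ASCL2 line were 26.7% higher and 33.3% lower, and those in the WiNTRLINC1 line, 6.67% and 13.3%, were near the 9.54% and 9.03% of all tested genes. E2F5, an E2F of the repressor class, rose in both, by 0.77 with the ASCL2 hairpin and 0.99 with the WiNTRLINC1 hairpin, while E2F6 (0.62) and E2F3 (0.48) rose in the ASCL2 line. RBL2, an RB relative, fell by 0.57 in the ASCL2 line, and RB1 fell by 0.35 there and did not pass in the WiNTRLINC1 line (0.00). SKP2, part of the ligase that degrades p27, had 885 and 878 with doxycycline in the WiNTRLINC1 line, against 2263 and 2158 without (-1.32 ± 0.0791, limma adjusted p = 6.04e-08). With the ASCL2 hairpin SKP2 did not pass (-0.20, limma adjusted p = 0.071), and its responses differed (-1.12, limma adjusted p = 9.97e-06). E2F8 was called lower under either hairpin, at -0.63 for ASCL2 and -0.51 for WiNTRLINC1. Its responses did not pass the test of difference (0.12, limma adjusted p = 0.737).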

How the data were processed

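RNA was sequenced from 8 libraries of doxycycline-inducible hairpin lines of LS174T cells. Per the labels' protocols, RNA was isolated with Trizol, mRNA was cut with RNase III, and libraries were read on an Ion Proton. The submitters' processing notes name cutadapt, TopHat2 2.0.9, Cufflinks and DESeq as tools, and hg19, mm9 and GRCh37 as builds, with no role for any. How reads were counted, and whether by strand, is not given in the sources used here. Each gene has a deposited score, a whole number that behaves as a read count scaled library by library and then rounded, since in 4 of the 8 libraries some whole numbers between 1 and 100 are used by no gene. Totals lay between 21524463 and 22941231, and the original depth is unknown, so no counting interval is given.

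A symbol was found for 51959 of 57736 identifiers, and those without one took 1.13% of all values. A count model needs raw counts, so limma 3.58.1 in R 4.3.3 was fitted to log2(value + 1), using a mean-variance trend, 4 groups, all 8 libraries and no covariates, which gave 4 residual and 10.5 prior degrees of freedom. Fold changes on this scale understate the change of genes with low values. Genes reaching 10 in 2 or more libraries were tested, and an adjusted p (Benjamini-Hochberg) under 0.05 was a call. Doxycycline-treated cells were compared with untreated ones of their line, the responses of the lines with each other, and the lines when untreated (WiNTRLINC1 over ASCL2). Alternatives were another pseudocount, filters, scalings, no trend, each line alone, a replicate block and leaving out each library. The fit was tested on simulated data.

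All 40 matched genes are reported. Of each other list (other replication genes, E2F and RB network, CDK inhibitors, replication histones, mitotic genes), up to 4 called genes per comparison with the smallest adjusted p are named, with the regulators CDKN1A, CDKN1B, RB1, GMNN and RRM2B. Some genes of these lists and of the marker lists are counted but not reported here by name. The members and lists were chosen with earlier results of these data known. Promoters came from RefSeq for GRCh38.p14, and exon lengths and overlaps from GENCODE, whose coordinates are not printed because its build differs.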

Additional observations from a re-analysis of the deposited data

Results flagged for a closer look

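The response to doxycycline differed between the lines, by a test of the difference itself, for 8 of the 40 genes. That is 20%, all with the higher response in the WiNTRLINC1 line, against 15.0% of all tested genes and 7.39% in that direction. The difference is the log2 fold change in the WiNTRLINC1 line minus that in the ASCL2 line, from limma with Benjamini-Hochberg adjustment over all tested genes, with 2 libraries per group. It was 1.13 for TYMS, 1.09 for FEN1 and 1.05 for MCM3, which fell more than 2-fold in the ASCL2 line and had log2 fold changes of -0.10, -0.17 and -0.21 in the WiNTRLINC1 line. It was 0.56 for POLA2 and 0.51 for POLA1, which fell in both lines. It was 0.57 for RFC2, 0.50 for CHAF1B and 0.39 for RRM1, which fell in the ASCL2 line and did not pass in the WiNTRLINC1 line. For TYMS, FEN1 and MCM3 the call held under all 16 other settings, and for the other 5 it was lost under at least 1 of them.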

How the results depend on the processing

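All 26 falls of the ASCL2 line and all 13 of the WiNTRLINC1 line kept their sign under the 17 other settings. Without a mean-variance trend limma called 12 members in the ASCL2 line, 4 in the WiNTRLINC1 line and 3 differences of response, and 3410, 1873 and 1313 genes in all, against 5884, 4104 and 3314. With no filter, which puts more genes under the adjustment, it called 5 members in the WiNTRLINC1 line and 5 differences, and 2395 and 1914 genes in all. Leaving out 1 library at a time gave 19 to 26 members in the ASCL2 line, 7 to 13 in the WiNTRLINC1 line, 5 to 11 differences and 27 to 33 between untreated lines, and 3665 to 5862, 2398 to 4131, 2315 to 2891 and 10458 to 12002 genes in all. The cause of these shifts was not tested. Another pseudocount, a filter at 50, the scalings and each line alone left every count within 1.5 times. With the replicate block 26, 13, 8 and 33 members were called in the same order, and 5962, 4182, 3403 and 12261 genes in all. Within a line, deviations of same-numbered treated and untreated libraries had r = -0.0521 (ASCL2 line) and 0.1054 (WiNTRLINC1 line). Whether same-numbered libraries deviated together across the lines was not examined, so a batch shared between the lines is not excluded. Leaving out single libraries turned the sign of some uncalled values, over these ranges: CCNE1 in the ASCL2 line (-0.16 to 0.08); in the WiNTRLINC1 line CDC6 (-0.01 to 0.08), POLD1 (-0.19 to 0.11), POLE (-0.07 to 0.01), PCNA (-0.10 to 0.03), CCNE2 (-0.18 to 0.20) and SLBP (-0.00 to 0.05); and in the difference MCM2 (-0.01 to 0.12), POLE (-0.03 to 0.05) and POLE2 (-0.27 to 0.19). It also turned for CCNE2 in the WiNTRLINC1 line after quantile normalization (-0.00) and for POLE2 in the difference after scaling to the library total (0.02). With 2 libraries per group an exact two-sided permutation test of a single value cannot go below 0.333, so calls rest on the spread pooled over groups and genes. Small falls such as that of MCM7 lie at the edge of what this design resolves, and low genes such as CCNE2 have the widest errors.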

Other observations

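Genes of mitosis were also lower with doxycycline. Of 15 tested, 14 fell and 1 did not pass in the ASCL2 line, and 7 fell and 8 did not pass in the WiNTRLINC1 line. The shares of the 15 called lower were thus 93.3% and 46.7%, against 12.7% and 9.03% of all tested genes. Their summed deposited value was 25877 and 25939 in doxycycline-treated libraries of the ASCL2 line, against 37845 and 38402 in untreated ones. In the ASCL2 line the anaphase activator CDC20 fell by 0.75, the transcription factor FOXM1 by 0.72, the kinase PLK1 by 0.69 and the cyclin CCNB1 by 0.66 on the log2 scale. In the WiNTRLINC1 line MKI67, the proliferation antigen, fell by 0.57, CENPF of the kinetochore by 0.55, FOXM1 by 0.52 and CDC20 by 0.45. By the test of responses 4 of the 15 (26.7%) had the higher response in the WiNTRLINC1 line, against 7.39% of all tested genes. They were BUB1B (0.85), PLK1 (0.66), CCNB2 (0.38) and BUB1 (0.37). The limma fit put 0 of the 15 on the other side, and 0 at an unadjusted p under 0.05.

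Of the 8 tested genes for replication histones, H1-2 (-0.75) and H2AC6 (-0.43) fell in the ASCL2 line and 6 did not pass. In the WiNTRLINC1 line limma called 0 of the 8, and 0 were past an unadjusted p of 0.05. Between untreated lines 6 of the 8 were lower in the WiNTRLINC1 line, among them H1-2, with 121 and 95 in the WiNTRLINC1 line, against 914 and 604 in the ASCL2 line (6.88-fold). In the order of these comparisons the shares called lower were 25%, 0% and 75%, against 12.7%, 9.03% and 29.5% of all tested genes.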
